A study of Gallus gallus with 6 samples.

Results

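miR-143 and miR-145 were followed through 6 small RNA libraries of testis, made from 40-week-old breeder cocks of the Cobb500 breed. The A group (3 libraries) ate a corn soybean feed with 10 g of Astragalus polysaccharide (APS), a plant extract used as a feed additive, in each kg, and the C group (3 libraries) ate the same kind of feed without it (0 g). The comparison of the diets asked which testis miRNAs differ with the supplement. The paper's methods describe the left testis of 1 bird drawn from a replicate of its diet as the sample, and biological replicates within each diet, whereas paper and sample labels differ on the flock, the RNA kit and the sequencer. The members were all lines of the miRNA table whose name, without species prefix and sequence marks, was miR-143 or miR-145. They were 5 of 1302 lines, or 5 of 1151 distinct sequences: 4 of miR-143 and 1 of miR-145. None of the 5 bore a chicken (gga) name, and the listed name gga-miR-145 had no line of its own.

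miR-143 and miR-145 are cut from 1 primary transcript in mammals, where both are abundant in contractile smooth muscle of vessels and visceral organs. miR-145 and miR-143 are known there for keeping smooth muscle cells in the contractile state, partly by repressing transcription factors and signalling proteins that favour division. A hairpin has a 5p and a 3p arm, and one of them usually gives most of the mature miRNA. In the testis, smooth muscle lies in vessel walls and the tunic, and contractile myoid cells line the seminiferous tubules. In the RefSeq annotation of chicken, MIR143 and MIR145 are neighbours on 1 chromosome with 0 other genes starting between them, and 1 long noncoding RNA gene, LOC112533410, spans both. Expression of either miRNA in bulk testis does not name its cell of origin, and fewer cells of a type and less RNA per cell cannot be told apart here.

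The 5 sequences are shown in full because the arm, the seed and the last bases set the members apart. They are written 5′ to 3′ in the DNA letters of the deposited table, with the seed (bases 2 to 8, the part that pairs with targets) in capitals. In miR-145 the seed is counted after 3 extra bases at the 5′ end, which its name marks.
hsa-miR-143-3p_R+1: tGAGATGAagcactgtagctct
cgr-miR-143_R+2: tGAGATGAagcactgtagctcat
hsa-miR-143-5p_R-1: gGTGCAGTgctgcatctctgg
hsa-miR-143-5p_R-1_1ss8TA: gGTGCAGAgctgcatctctgg
pma-miR-145-5p_L+3: atcgTCCAGTTttcccaggaatccct

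The first sequence, 22 nt long, is the main 3p product of miR-143. The second, 23 nt long, was named after a hamster miRNA with no arm in the name. It shares its first 21 bases with the main 3p sequence and ends in AT in place of T, so it was counted on the 3p arm and is called the AT-ended 3p sequence here. The third and the fourth, each 21 nt long, are 5p sequences that differ by T8A (position 8 from the 5′ end, the main sequence's base first), within the seed. The fifth, 26 nt long, is the 5p product of miR-145 under a lamprey name. No other sequence of the table (0 for each seed) shared bases 2 to 8 with a member. In the study's classes of reads, the main 3p and main 5p sequences of miR-143 were placed in the chicken genome, whereas the AT-ended, T8A and miR-145 reads matched a miRNA of another species without a place in it.

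The 6 libraries held 497286 to 743187 miRNA counts each, and a count of 0 allows up to 3 counts, or 4.04 to 6.03 CPM (counts scaled to a common library total), for counting error only. Levels below are CPM scaled by TMM (trimmed mean of M values), unless named otherwise. Of 1215 names, 800 reached an average of 1 in the authors' normalized values of at least 1 diet group, and edgeR's quasi-likelihood test was run on these. Of these, 0 (0%) had an adjusted p under 0.05, 54 (6.75%) had an unadjusted p under 0.05 (26 by DESeq2's Wald test, also with 0 adjusted), and the diets' libraries did not overlap for 110 (13.8%). The testis label was checked on 2 lists: names of the miR-34b, miR-34c and miR-449 group, known from meiotic germ cells and ciliated cells, summed to 1189 to 1331 CPM in the A libraries and 823 to 1041 CPM in the C libraries, and miR-202, known from gonadal somatic cells, to 38468 to 54789 CPM in the A libraries and 44788 to 69413 CPM in the C libraries. C replicate 2 stood apart. It held 507 CPM of names from a cluster known only in placental mammals, against 1.61, 0 and 30.4 CPM in A replicates 1, 2 and 3 and 2.80 and 5.53 CPM in C replicates 1 and 3. C replicate 2 also held the highest TMM-scaled levels of miR-143-3p, miR-143-5p and miR-145. A replicate 2, with 0 CPM of that cluster, came second for each (miR-143-3p: 108200 CPM, against 110277 CPM in C replicate 2). The TMM factor, which multiplies the library total, was lowest in C replicate 2 (0.868). In CPM without TMM, C replicate 2 was not the highest library for miR-143-3p, miR-143-5p or miR-145. For miR-143-3p it then had 95703 CPM, against 96959 CPM in A replicate 2. Because C replicate 2 stood apart in that cluster, the log2 fold changes of the tested members are also given without it. Spread, likeness to miR-143-3p, library order and list sums are given with all 6 libraries only.

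miR-143 was one of the most abundant miRNAs of the testis, and nearly all of it was 1 sequence. Its 4 sequences took 7.65%, 9.78% and 6.45% of the miRNA counts in A replicates 1, 2 and 3, against 7.01%, 9.65% and 8.56% in C replicates 1, 2 and 3. The share averaged 7.96% ± 1.69 in the A group and 8.40% ± 1.33 in the C group (SD, n = 3 each), and the diets overlapped (two-sided exact permutation p = 0.8, where 3 against 3 libraries cannot go below 0.1). Over all 6 libraries miR-143 held 8.30% of the counts, 307626 of 3704316, and 99.1% of these were the main 3p sequence. miR-143-3p was the second name by mean CPM over the 6 libraries. It ranked 2 in 4 libraries and 3 in A replicate 3 and C replicate 1. gga-miR-99a-5p, a member of the miR-99/100 family, stood above it in every library, with gga-miR-21-5p (68213 CPM) also above it in A replicate 3 and gga-miR-202-5p (68639 CPM) in C replicate 1.

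The deposited counts of the main miR-143-3p sequence were 43660, 69935 and 40388 in the A libraries, and 34569, 71125 and 45222 in the C libraries. The authors' normalized values were 43952, 66248 and 35803 in the A libraries, and 37133, 70240 and 50206 in the C libraries. Replicate 2 was the highest of its diet in both groups on either scale, and the spread within a diet was wider than the gap between the diets. In CPM, miR-143-3p stood at 70276, 108200 and 58554 in the A libraries, and at 64616, 110277 and 83425 in the C libraries. It averaged 79010 ± 25950 CPM in the A group and 86106 ± 22948 CPM in the C group (SD, n = 3 each). The A over C log2 fold change was -0.12 (SE 0.25, edgeR adjusted p = 0.903), close to the median of -0.13 over all 800 names. Its 95% interval, 0.621-fold to 1.36-fold, left room for a fall or a rise of that size. The closeness to the median depended on the filter. Among the 356 names with a mean of at least 10 counts, miR-143-3p had -0.16 and the median was -0.05. The sign rested on single libraries: the log2 fold change was 0.09 without C replicate 2 and 0.07 without A replicate 3.

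Its neighbours in the order of mean levels were gga-miR-99a-5p above, with 112667 ± 26085 CPM in the A group and 124145 ± 37804 CPM in the C group, and gga-miR-26a-5p below, with 63473 ± 14311 CPM in the A group and 67836 ± 21321 CPM in the C group (SD, n = 3 each). miR-26a is known from smooth muscle and other mesenchymal cells. The SDs of miR-143-3p reached into those of both neighbours, although miR-99a-5p was above and miR-26a-5p below it in each single library.

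**Figure D1:**
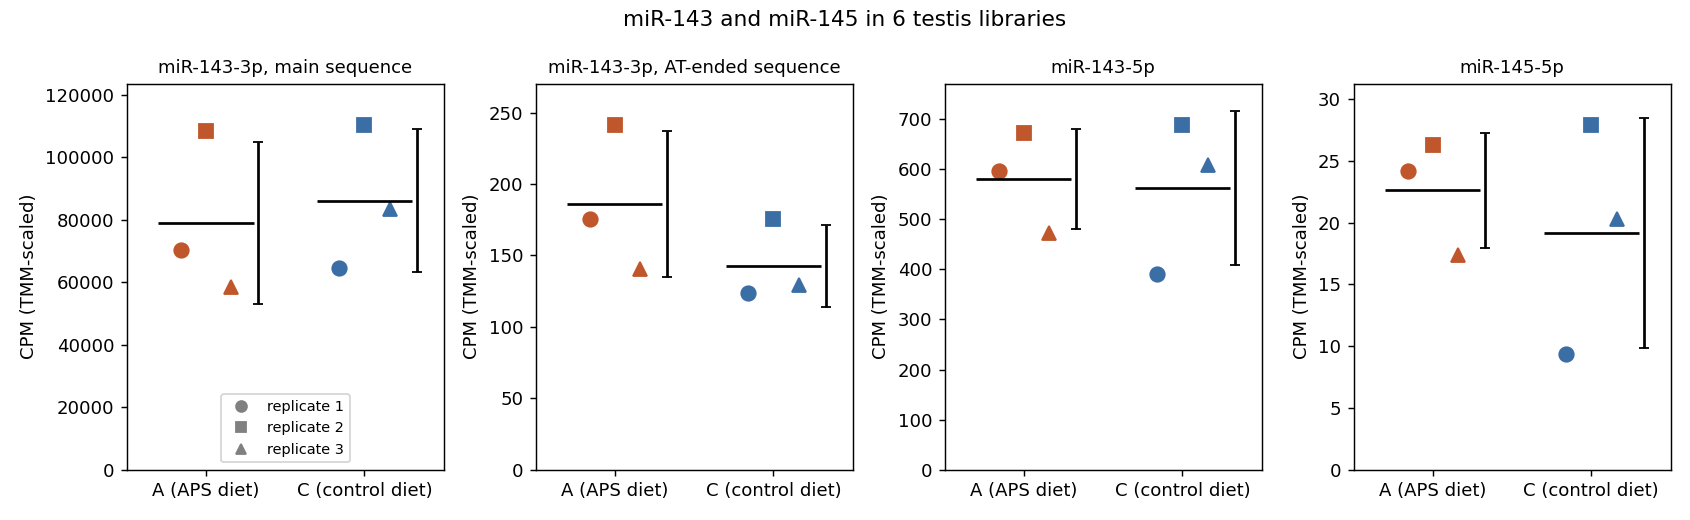
Level of the 4 tested sequences (vertical axis, CPM, from 0) in the A and C libraries, with 1 point per library, the group mean as a line and the SD as a bar (n = 3 each). For each sequence the A and C points overlap, and for miR-143-3p A replicate 2 (108200 CPM) and C replicate 2 (110277 CPM) lie above the other 4 libraries.

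The 5p arm of miR-143, the arm that is mostly discarded, was present at a far lower level than the 3p arm. Its main sequence had 371, 434 and 326 counts in the A libraries and 209, 444 and 330 counts in the C libraries. In CPM these were 597, 671 and 473 in the A libraries, and 391, 688 and 609 in the C libraries. C replicate 1 was the lowest and C replicate 2 the highest of the 6, so the C group spanned the A group. miR-143-5p averaged 580 ± 100 CPM in the A group and 563 ± 154 CPM in the C group (SD, n = 3 each), with a log2 fold change of 0.04 (SE 0.24, edgeR adjusted p = 0.973) and a 95% interval of 0.707-fold to 1.504-fold. The log2 fold change was -0.16 without C replicate 1, -0.07 without A replicate 2, 0.20 without A replicate 3 and 0.22 without C replicate 2. The T8A sequence had 2 counts, both in A replicate 2, against 0 in the C libraries. It was the only member below the level limit, and both counts are under the 3 that a count of 0 allows, so no comparison was made.

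Arm use was read as the share of miR-143 counts on the 5p arm, which needs no scaling between libraries. The share was 0.841% (95% Clopper-Pearson interval 0.757% to 0.930%), 0.618% (0.562% to 0.679%) and 0.799% (0.715% to 0.890%) in A replicates 1, 2 and 3. In C replicates 1, 2 and 3 it was 0.600% (0.521% to 0.687%), 0.619% (0.563% to 0.680%) and 0.723% (0.648% to 0.805%). A replicate 2 lay among the C libraries, whereas A replicates 1 and 3 lay above them. Expressed as counts, the 3p arm exceeded the 5p arm 118, 161 and 124 times in the A libraries and 166, 160.4 and 137 times in the C libraries. The log2 ratio of 3p to 5p averaged 7.05 ± 0.24 in the A group and 7.26 ± 0.15 in the C group (SD, n = 3 each), a difference of -0.21 (two-sided exact permutation p = 0.3). For scale, 59 hairpin names of the table had both arms and at least 1000 counts. Their minor arm held a median of 1.06% of the counts (range 0.00302% to 45.9%), against 0.689% for miR-143, which was number 26 from the lowest, and 21 of the 59 were mostly 3p, as miR-143 was.

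The AT-ended 3p sequence of miR-143 had 109, 156 and 97 counts in the A libraries and 66, 113 and 70 counts in the C libraries. Its CPM values were 175, 241 and 141 in the A libraries, and 123, 175 and 129 in the C libraries. The means were 185.8 ± 51.2 CPM in the A group and 142.6 ± 28.4 CPM in the C group (SD, n = 3 each), and A replicate 3 lay below C replicate 2, so the diets overlapped. They also overlapped in the authors' normalized values (86.0 in A replicate 3, 111.6 in C replicate 2). The overlap depended on the scaling. In CPM without TMM, A replicate 3 (153.3) lay just above C replicate 2 (152.0). The log2 fold change was 0.38 (SE 0.26, edgeR adjusted p = 0.704), with a 95% interval of 0.861-fold to 1.96-fold. It was 0.15 without A replicate 2 and 0.57 without A replicate 3, the lowest and highest values with 1 library left out, and 0.56 without C replicate 2.

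Set against the main 3p sequence in the same library, the AT-ended one was more frequent in the A group. It made up 0.249% (Clopper-Pearson interval 0.205% to 0.300%), 0.223% (0.189% to 0.260%) and 0.240% (0.194% to 0.292%) of the miR-143-3p counts in A replicates 1, 2 and 3. In C replicates 1, 2 and 3 it made up 0.191% (0.147% to 0.242%), 0.159% (0.131% to 0.191%) and 0.155% (0.121% to 0.195%). All 3 A libraries were above all 3 C libraries, although the counting intervals of A replicate 2 and C replicate 1 overlapped. For scale, the CPM of the diets' libraries did not overlap for 110 (13.8%) of the 800 names tested. The log2 ratio of AT-ended to main sequence averaged -8.71 ± 0.08 in the A group and -9.21 ± 0.17 in the C group (SD, n = 3 each). The difference of 0.50 had a two-sided exact permutation p = 0.1, the smallest that 3 against 3 libraries can give, so the design could not bring it past 0.05. The AT-ended reads, like those of miR-145, had no place in the chicken genome in the study's classes. They were thus not shown to come from chicken MIR143.

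**Figure D2:**
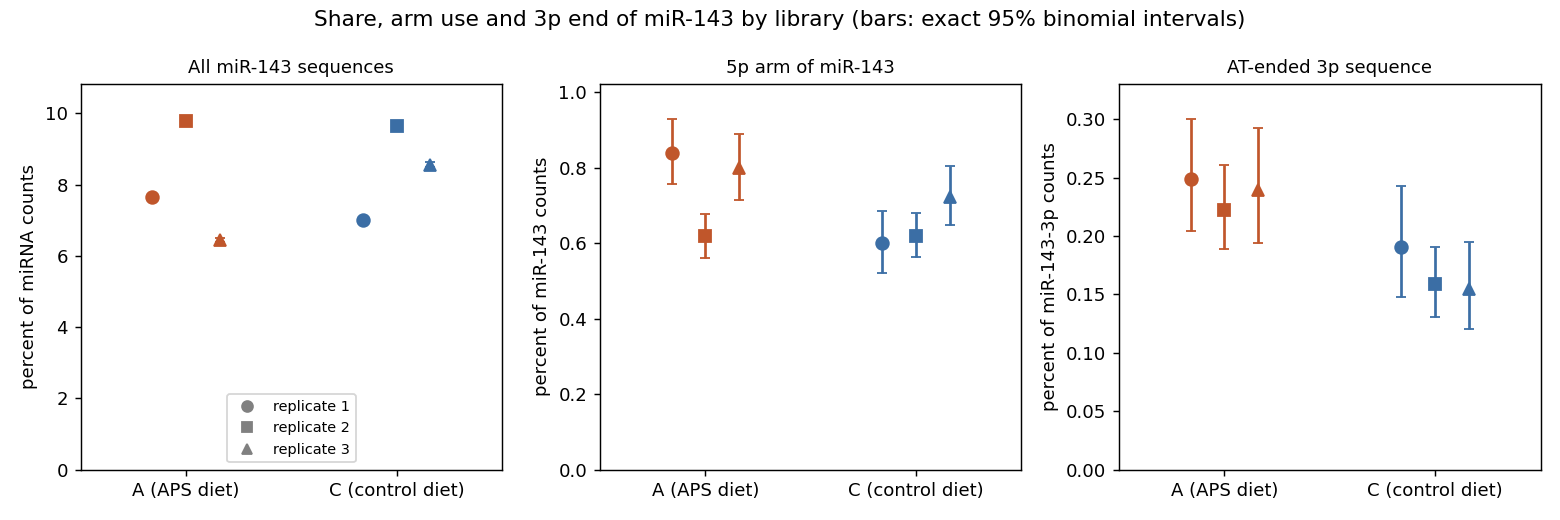
Share of miR-143 in the miRNA counts, share of the 5p arm in miR-143, and share of the AT-ended sequence in miR-143-3p (vertical axes, percent, from 0) for each A and C library, with exact 95% binomial intervals for counting error. The shares of the AT-ended sequence lie at 0.223% or more in the A libraries and at 0.191% or less in the C libraries, whereas the diets overlap in the other 2 panels.

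miR-145 was close to the limit of detection. It had 15, 17 and 12 counts in the A libraries and 5, 18 and 11 counts in the C libraries. In CPM it stood at 24.1, 26.3 and 17.4 in the A libraries, and at 9.35, 27.9 and 20.3 in the C libraries. C replicate 1 was the lowest library and C replicate 2 the highest, as for miR-143-5p. miR-145 averaged 22.6 ± 4.65 CPM in the A group and 19.2 ± 9.33 CPM in the C group (SD, n = 3 each), with a log2 fold change of 0.22 (SE 0.43, edgeR adjusted p = 0.903). The 95% interval ran from 0.593-fold to 2.28-fold and left room for a fall or a rise of that size. The log2 fold change was -0.10 without C replicate 1, 0.09 without A replicate 2, 0.40 without A replicate 3 and 0.60 without C replicate 2. Of the 4 tested members, 3 (miR-143-5p, the AT-ended sequence and miR-145) had a log2 fold change above 0, against 42% of all names tested, and 0 had an adjusted p under 0.05.

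The sequences named miR-143 and miR-145 thus differed widely in their counts in this table. The miR-145 reads had no place in the chicken genome in the study's classes, so they were not shown to come from chicken MIR145. For each count of miR-145, the main miR-143-3p sequence had 2911, 4114 and 3366 counts in the A libraries and 6914, 3951 and 4111 counts in the C libraries, and 3909 over all 6. Even the minor 5p arm of miR-143 had 24.7, 25.5 and 27.2 counts per count of miR-145 in the A libraries, and 41.8, 24.7 and 30.0 in the C libraries. In the order of mean CPM, miR-143-3p was number 2, miR-143-5p number 86, the AT-ended sequence number 150 and miR-145 number 325 of 800. The miR-145 line holds only 1 form, 26 nt long with 3 added 5′ bases, which is also the longest read that the study's length limits (18 to 26 nt) let through. The name rule found no other sequence of miR-145, and forms outside that rule were not analysed. The part of read length in the gap was not tested.

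miR-143-3p varied more between libraries than most miRNAs of its abundance. Its highest library was 1.88 times its lowest over all 6, 1.85 times within the A group and 1.71 times within the C group. The SD of log2 CPM between libraries of 1 diet was 0.42, against a median of 0.17 over the 55 names with a mean of at least 1000 counts, among which it was number 9 from the largest. The names with a larger SD were gga-miR-126-3p and gga-miR-126-5p of endothelial cells, gga-miR-199-5p and gga-miR-199-3p, a variant of gga-miR-146c-5p, the sequence shared by gga-miR-10a-5p and gga-miR-10b-5p, and gga-miR-100-5p. Among the 10 most abundant names, the SD of miR-143-3p was the largest. Close to it were gga-miR-99a-5p (0.38), gga-miR-26a-5p (0.38) and gga-miR-125b-5p (0.37), also among these 10. miR-143-5p and the AT-ended sequence, with SDs of 0.35 and 0.34, were numbers 30 and 34 of 93 names with 100 to under 1000 counts, where the median was 0.26. miR-145 had an SD of 0.58 at a level where counting error is large.

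**Figure D3:**
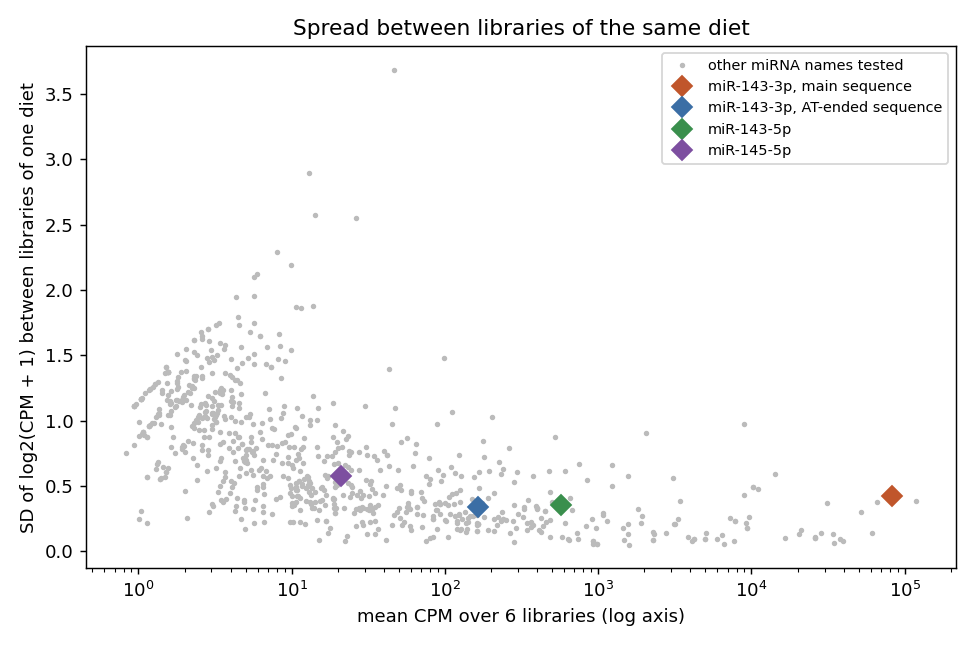
SD of log2(CPM + 1) between libraries of the same diet (vertical axis) against mean CPM over the 6 libraries (horizontal log axis) for the 800 tested names. miR-143-3p lies at the right edge with an SD of 0.42, not far above its neighbours in level, gga-miR-99a-5p (0.38) and gga-miR-26a-5p (0.38). miR-145 lies far to the left of miR-143-3p, with an SD of 0.58.

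In TMM-scaled CPM, the libraries stood in a similar order for miR-143-3p, miR-143-5p and miR-145. The order was less similar for the AT-ended sequence, whose highest library was A replicate 2. C replicate 2 and A replicate 2 were the highest pair for miR-143-3p, miR-143-5p and miR-145, and the lowest library was C replicate 1 for miR-143-5p, miR-145 and the AT-ended sequence and A replicate 3 for miR-143-3p. The names whose levels ran closest to miR-143-3p were found among 147 other names with a mean of at least 100 counts by the SD of their log2 CPM ratio to it over the 6 libraries, whose median was 0.42. The closest were gga-miR-199-3p (SD 0.11), gga-miR-99a-5p (0.12), gga-miR-26a-5p (0.13), gga-miR-125b-3p (0.17) and gga-miR-10a-5p (0.17), the last with the same sequence as gga-miR-10b-5p. The 5p arm of miR-143 itself was number 13 (0.21) and the AT-ended sequence number 28 (0.30). These values share libraries, depth and scaling and are a description over 6 points.

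gga-miR-199-3p, from hairpins known from fibroblasts and other mesenchymal cells, stood at 9106, 14661 and 7062 CPM in the A libraries and at 9342, 15960 and 10336 CPM in the C libraries. Its order of libraries was that of miR-143-3p, except that A replicate 1 and C replicate 1 changed places. The order was less similar for gga-miR-199-5p, the more abundant arm, with A replicate 2 highest and C replicate 1 lowest. That arm stood at 14070, 20473 and 11523 CPM in the A libraries and at 7368, 19996 and 11925 CPM in the C libraries. The fibroblast and mesenchyme list (miR-199 and miR-214, 6 of 8 names tested) summed to 23340, 35425 and 18702 CPM in the A libraries and to 16806, 36151 and 22395 CPM in the C libraries, and its log2 ratio to miR-143-3p had an SD of 0.16. Of its 6 tested names, 5 had a log2 fold change above 0, against 42% of all 800 names. The 1 below 0 was gga-miR-199-3p. The vessel lining list (miR-126, all 4 names tested) was more uneven. It summed to 12711, 14648 and 3761 CPM in the A libraries and to 5785, 18109 and 11622 CPM in the C libraries, a span of 4.82 times. In both lists the highest pair of libraries was C replicate 2 and A replicate 2, as for miR-143-3p, and the part of a different make-up of the tissue pieces in the spread of miR-143 was not tested. The red cell list (miR-144 and miR-451) did not share that order, with 246, 218 and 128 CPM in the A libraries and 295, 127 and 149 CPM in the C libraries.

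**Figure D4:**
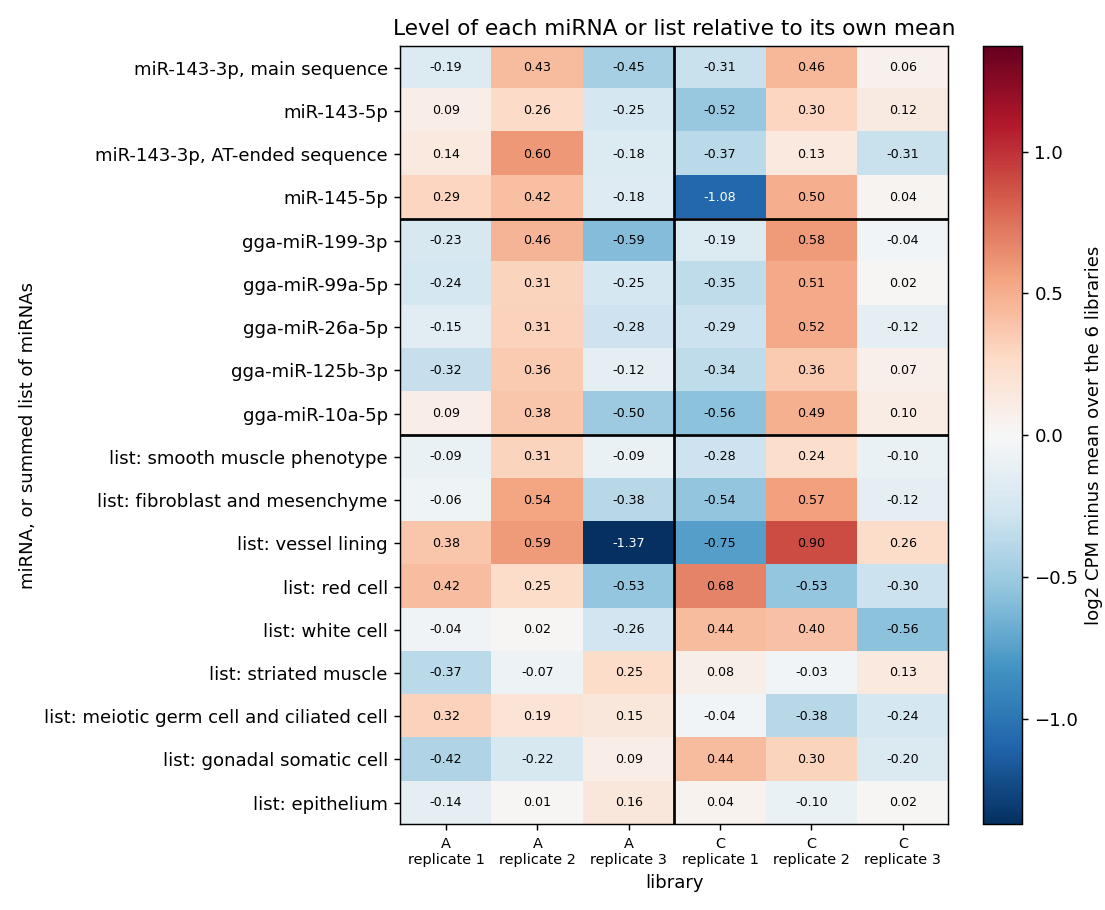
Log2 CPM of each tested member, of the 5 names most like miR-143-3p and of 9 summed lists, minus its own mean over the 6 libraries (colour and printed value), with the A libraries left of the C libraries. Replicate 2 of both diets is above the mean for miR-143-3p (0.43 in A, 0.46 in C). The same holds for the 5 names like it, which were picked for that likeness in these libraries. It also holds for the fibroblast, vessel lining, smooth muscle (0.31 in A, 0.24 in C) and white cell (0.02 in A, 0.40 in C) lists. The vessel lining list has the lowest value, -1.37 in A replicate 3.

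The other miRNAs known to act on the smooth muscle phenotype (miR-1, miR-10a, miR-21, miR-24, miR-26a, miR-133, miR-204, miR-221 and miR-222) had 37 names, of which 28 were tested. None (0) of the 28 had an adjusted p under 0.05 by edgeR. With an unadjusted p under 0.05, 3 of the 28 were higher in the A group and 1 of the 28 was lower. Among all 800 names, 17 (2.12%) were higher and 37 (4.62%) lower. The median log2 fold change was -0.06, against -0.13 over all names. The list summed to 146570 ± 24147 CPM in the A group and 137965 ± 25610 CPM in the C group (SD, n = 3 each). Its highest pair of libraries was also A replicate 2 (174452 CPM) and C replicate 2 (166104 CPM). The SD of the list's log2 ratio to miR-143-3p was 0.22. Its leading names were gga-miR-26a-5p (log2 fold change -0.10) and gga-miR-21-5p, a miRNA known from growth and injury responses of smooth muscle. gga-miR-21-5p stood at 59280, 75861 and 68213 CPM in the A libraries and at 52295, 53392 and 57419 CPM in the C libraries. Its A libraries were all above its C libraries, where 13.8% of all 800 names had diets that did not overlap. Its log2 fold change was 0.32 (edgeR unadjusted p = 0.0297, adjusted p = 0.682). The other 3 with an unadjusted p under 0.05, named after their values were seen, were gga-miR-21-3p (log2 fold change 0.52), xtr-miR-221 (1.72) and gga-miR-204 (-0.51). gga-miR-21-3p is the other arm of the miR-21 hairpin.

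The lists of other cell types were read in the same fit as miR-143. Of the 52 names tested over these 8 lists, 0 had an adjusted p under 0.05 by edgeR, against 0% of all 800 names, and 1 (1.92%) had an unadjusted p under 0.05, against 6.75% of all names. That name was gga-miR-34b-5p of the meiotic and ciliated cell list (edgeR unadjusted p = 0.00867), with a mean of 868 ± 53.8 CPM in the A group and 592 ± 71.3 CPM in the C group (SD, n = 3 each). The median log2 fold changes were 0.30 for fibroblast and mesenchyme, -0.14 for vessel lining, -0.20 for red cells, -0.31 for white cells, -0.10 for striated muscle, 0.36 for meiotic germ cells and ciliated cells, -0.09 for gonadal somatic cells and 0.35 for epithelium. Striated muscle names summed to 3448 ± 740 CPM in the A group and 3699 ± 218 CPM in the C group, nearly all of it gga-miR-499-5p, with 3218 ± 731 CPM in the A group and 3446 ± 254 CPM in the C group (SD, n = 3 each).

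The leading names of the lists had these log2 fold changes, with overlapping diets unless stated. Of all 800 names, 13.8% had diets that did not overlap. Among mesenchymal and endothelial names they were 0.23 for gga-miR-199-5p, -0.21 for gga-miR-199-3p, -0.11 for gga-miR-126-3p and -0.57 for gga-miR-126-5p. Among blood cell names they were 0.09 for gga-miR-144-3p, -0.21 for gga-miR-144-5p, -0.22 for gga-miR-142-5p and -0.40 for aca-miR-150-5p, whose A libraries were all below its C libraries. Among names of striated muscle, gonad, germ line and epithelium they were -0.10 for gga-miR-499-5p, 0.26 for gga-miR-499-3p, -0.37 for gga-miR-202-5p, -0.21 for gga-miR-202-3p, 0.55 for gga-miR-34b-5p (A libraries all above C libraries), 0.48 for mdo-miR-449c-5p, -0.03 for gga-miR-203a and 0.21 for aca-miR-203-3p.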

How the data were processed

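The authors processed the reads of each library with ACGT101-miR (version 4.2 per the labels): adapters, junk and other RNA were removed, reads of 18 to 26 nt were aligned to miRBase 21.0 precursors with a mismatch allowed, and the rest to the chicken genome (build: not given in the sources used here). As deposited, raw values were expected counts, divided between lines that share a sequence, and 87.3% of them were whole (within 0.001). The authors also deposited a normalized signal, the count times 1 constant per library, and columns of their own comparison (group means, fold changes, p-values), which were not used.

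Counts were summed per name, rounded, kept where the authors' normalized values averaged 1 or more in the A or the C group, and compared in R 4.3.3 by edgeR 4.0.16 (quasi-likelihood after TMM, with limma 3.58.1) with Benjamini-Hochberg adjustment over 800 names. Ratios and shares were compared by exact permutation with 0.5 added to counts in ratios. Descriptions and plots used scipy 1.17.1, numpy 2.4.6, matplotlib 3.10.9 and pandas 2.3.3 under Python 3.11.15. The edgeR fit was also run on counts simulated from its own model, which cannot show whether that model suits these libraries. The Clopper-Pearson intervals of shares cover counting error only. edgeR's quasi-likelihood test gives no SE, so it was worked back from the log2 fold change and the F statistic. The intervals of fold changes were built from this SE with a t quantile, and it includes the spread between libraries. PCR reads carried no molecular tags. Names given in the text are the members, the 2 most abundant of each list, the neighbours of miR-143-3p in level, the 5 most like it, and any name sharing a seed, with exceptions stated. Members and lists were chosen with earlier results of these data known. Alternatives were other scalings, filters and tests (DESeq2 1.42.0 among them), a replicate block, 1 line per sequence, and each library left out. The main tests did not treat samples of the same replicate number as pairs. RefSeq names and gene order are those of GRCg7b.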

Additional observations from a re-analysis of the deposited data

How the results depend on the processing

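Across 19 alternatives no member had an adjusted p under 0.05 (edgeR, limma or DESeq2). The adjusted p ranged over 0.716 to 1.0 for miR-143-3p, 0.700 to 0.992 for miR-143-5p, 0.574 to 0.992 for the AT-ended sequence and 0.698 to 0.992 for miR-145. Leaving out single libraries gave log2 fold changes (A over C) of -0.42 to 0.09 for miR-143-3p, where the sign turned without C replicate 2 (0.09) and without A replicate 3 (0.07), -0.16 to 0.22 for miR-143-5p, where it turned without C replicate 1 (-0.16) and without A replicate 2 (-0.07), -0.10 to 0.60 for miR-145, where it turned without C replicate 1 (-0.10), and 0.15 to 0.57 for the AT-ended sequence. The share of miR-143 differed by -1.35 to 0.31 percentage points (0.31 without A replicate 3, 0.18 without C replicate 2). The 3p to 5p log2 ratio differed by -0.35 to -0.12 and the AT-ended to main ratio by 0.44 to 0.60, with no change of sign. Without both C replicate 2 and A replicate 3, an alternative chosen after seeing the data, miR-143-3p had a log2 fold change of 0.29, miR-143-5p 0.37, miR-145 0.78 and the AT-ended sequence 0.75 (edgeR unadjusted p = 0.0319, adjusted p = 0.574), the only member and alternative with an unadjusted p under 0.05. The cause was not tested. All names together gave 0 calls except with no filter on low values, where 15 were called. Unadjusted calls split into 17 higher and 37 lower in A with TMM, and 41 higher and 20 lower with quantile normalization, which moved the median log2 fold change of all names to 0.02, against -0.13 with TMM. With the replicate block miR-143-3p had -0.14 (SE 0.12, against 0.25 in the main fit, edgeR adjusted p = 0.845) and 0 names were called. Deviations of same-numbered libraries correlated with r of 0.05, -0.06 and -0.07 (numbers 1, 2 and 3). Over names with a mean of at least 100 counts, r was 0.08, 0.49 and 0.01. Not every sample correlated best with its own number, and these values do not settle whether the numbers pair the samples. The alternative with only the most abundant sequence of each arm gives no 3p-end ratio. miR-145, at 5 to 18 counts a library, is limited by depth.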
